A study of Drosophila melanogaster with 6 samples.

Results

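Aminoacyl-tRNA synthetases are the enzymes that attach each amino acid to its transfer RNA, the step that fixes the meaning of the genetic code. Their genes were compared between wing imaginal discs of Drosophila larvae mutant for kdm5 and wild type discs. The genes were taken by name, as all those whose current symbol is a 3-letter amino acid code followed by RS, with -m for the mitochondrial enzyme and GluProRS for the joined glutamyl and prolyl enzyme. The naming rule uses no measured value, but the family was chosen with earlier results of these data known. The rule gave 30 of the 11982 genes measured by a probe set of their own, 16 cytosolic and 14 mitochondrial. The gene table holds 33 symbols of this form, and AlaRS-m, AspRS and MetRS were not analysed here. The rule also leaves out alpha-PheRS and beta-PheRS, which encode the cytosolic phenylalanine enzyme and are given with the related genes.

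Wing discs are larval epithelia from which the wing blade and the dorsal thorax develop, and they were taken from the third instar at 96 h AED. The mutant group carried kdm510424 and had 3 samples, and the wild type group was the strain w1118 and had 3 samples, each a pool of about 60 discs on 1 Affymetrix Drosophila Genome 2.0 array. Kdm5, also called lid, encodes a demethylase of histone H3 lysine 4, and the comparison asks which transcripts differ when it is lost. The sources used here do not give whether the mutant larvae were homozygous. The wild type is not stated to share the mutant's background, so strain and mutation cannot be told apart. Stocks of both groups were kept at 25 °C.

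Animals charge tRNA both in the cytosol and in mitochondria, with enzymes encoded in the nucleus. For many amino acids each compartment has an enzyme of its own, while in humans single genes supply the glycine and lysine enzymes of both; genes without -m are called cytosolic here by their symbol alone. The cytosolic enzymes charge the tRNAs read by cytosolic ribosomes, and the mitochondrial enzymes are imported to charge the tRNAs encoded in the mitochondrial genome. The enzymes fall into class I and class II by the fold of the catalytic domain. Several cytosolic ones sit together in a multi-synthetase complex held by the scaffold proteins AIMP1, AIMP2 and AIMP3. Cytosolic charging is closely tied to growth, because uncharged tRNA is the signal that switches on the kinase Gcn2.

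The Kdm5 transcript was low in every mutant array, with log2 signals of 4.67, 3.70 and 4.49 in the mutant, against 10.09, 10.15 and 9.99 in wild type. Correlations between arrays of a genotype were 0.998 to 0.999 and between genotypes 0.989 to 0.99, across probe sets. All 11 measured markers of the disc epithelium, among them vg, nub and ap, lay above the median signal of the array (4.44). Of these 4 were called lower in the mutant (36.4%), beside 18.1% of genes above the median signal. Markers of tissues that can adhere to discs were mostly lower in the mutant. Over all genes 11.9% were called lower and 9.76% higher. Of 12 salivary gland markers 8 fell and none rose, with a log2 summed signal of 9.82 to 9.93 in the mutant and 12.06 to 13.21 in wild type. Of 7 fat body markers 6 fell, with sums of 10.21 to 10.34 in the mutant and 11.80 to 12.20 in wild type. Of 12 haemocyte markers 6 fell and 1 rose, with sums of 10.20 to 10.34 in the mutant and 10.75 to 11.08 in wild type. Of 9 muscle markers 6 fell and 1 rose (9.59 to 9.83 in the mutant, 10.31 to 10.59 in wild type), and of 7 germline markers 4 fell (6.46 to 6.60 in the mutant, 6.86 to 7.04 in wild type). The germline markers were dim, with mean signals of 3.18 to 4.92 and only 1 of them above the median signal. Of 6 myoblast markers 1 fell, with sums of 10.43 to 10.49 in the mutant and 10.36 to 10.64 in wild type. In tissue samples fewer cells of a type and less RNA per cell cannot be told apart, and the part of these markers in the synthetase changes below was not tested.

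The synthetase genes changed little. Of the 30 genes 8 passed an adjusted p of 0.05 in limma, 6 higher and 2 lower in the mutant, and none changed by 2-fold. That is 26.7% of the members, beside 21.7% of all genes and 32.3% of the 7274 genes above the median signal, where all 30 members lie. The share of called members therefore did not stand out from the background. By compartment, 4 of 16 cytosolic genes rose and none fell (25.0% called), while 2 of 14 mitochondrial genes rose and 2 fell (28.6%). The difference between compartments was not tested. Over all genes 9.76% were called higher and 11.9% lower, or 14.2% and 18.1% above the median signal. At an unadjusted p under 0.05, 7 cytosolic and 10 mitochondrial genes passed. So did 4157 of the 11982 genes, and 3479 of the 7274 above the median signal. Under an alternative variance prior 2 cytosolic genes were called lower, beside 2326 of all probe sets (1846 in the main fit). The median log2 change, mutant minus wild type, was 0.08 over the cytosolic genes, -0.07 over the mitochondrial genes and 0.004 over all genes. The median absolute change was 0.12 for the cytosolic genes, 0.21 for the mitochondrial genes, 0.11 over all genes and 0.14 over genes above the median signal.

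**Figure D1:**
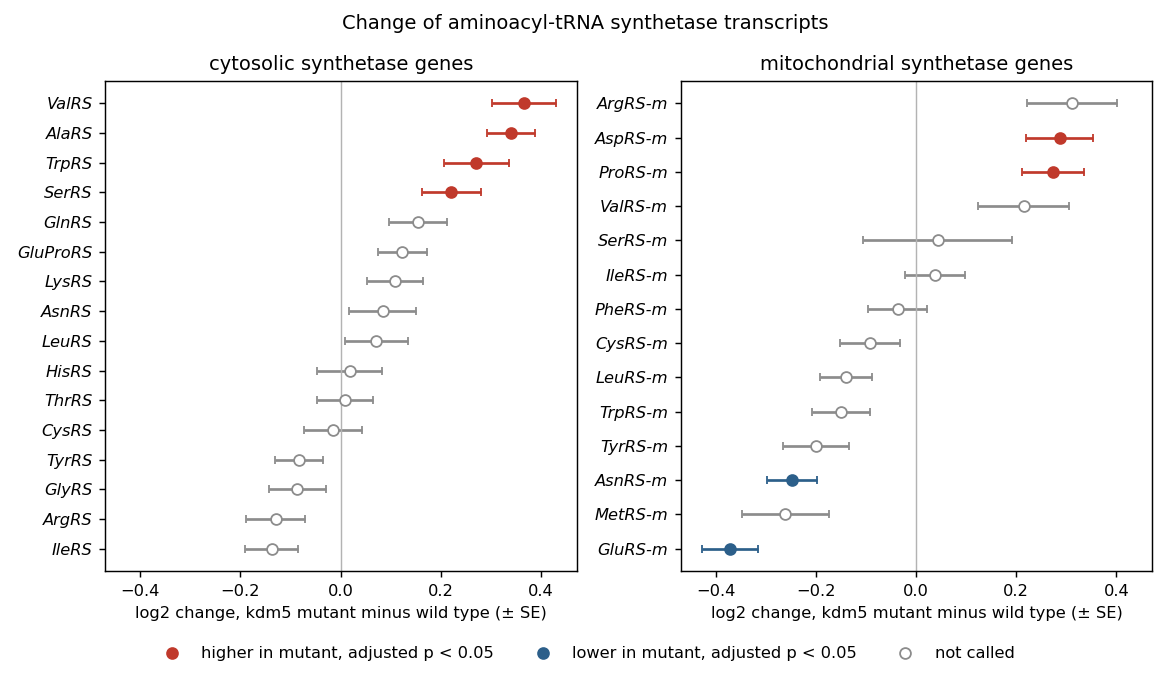
Log2 change in signal, kdm5 mutant minus wild type, with the moderated SE of limma, for the 16 cytosolic genes (left) and the 14 mitochondrial genes (right), each over 3 arrays per genotype. Filled points passed an adjusted p of 0.05. The cytosolic changes run from -0.14 to 0.37 and the mitochondrial changes from -0.37 to 0.31.

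The cytosolic genes that rose were those for alanine, valine, tryptophan and serine. AlaRS, which charges alanine and has an editing activity that removes wrongly attached serine, had log2 signals of 10.34, 10.32 and 10.32 in the mutant, against 10.03, 9.98 and 9.95 in wild type. All mutant arrays lay above all wild type arrays, and the mutant arrays differed from each other by far less than the gap. It rose by 0.34 ± 0.05 on the log2 scale (SE), which is 1.27-fold (adjusted p = 0.00271, limma). ValRS, the valine enzyme, had signals of 9.69, 9.72 and 9.64 in the mutant and 9.21, 9.39 and 9.35 in wild type, again without overlap. It rose 1.29-fold, by 0.37 ± 0.06 (adjusted p = 0.00653, limma). Its probe set, like those of IleRS and ThrRS, carries the manufacturer's suffix for probes that can match more than 1 transcript. AlaRS and ValRS were called in all 15 alternative analyses.

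The rises of SerRS and TrpRS were smaller and less firm. SerRS, which charges serine and also the tRNA that is converted to carry selenocysteine, read 11.29, 11.25 and 11.13 in the mutant and 11.02, 10.96 and 11.02 in wild type. The groups did not overlap, and mutant replicate 3 lay nearest to wild type. Its change was 0.22 ± 0.06 (adjusted p = 0.041, limma), a 1.17-fold rise. It was no longer called when any wild type array, or mutant replicate 1 or 2, was left out (adjusted p = 0.0803 to 0.134), and was called without mutant replicate 3 (0.025).

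**Figure D2:**
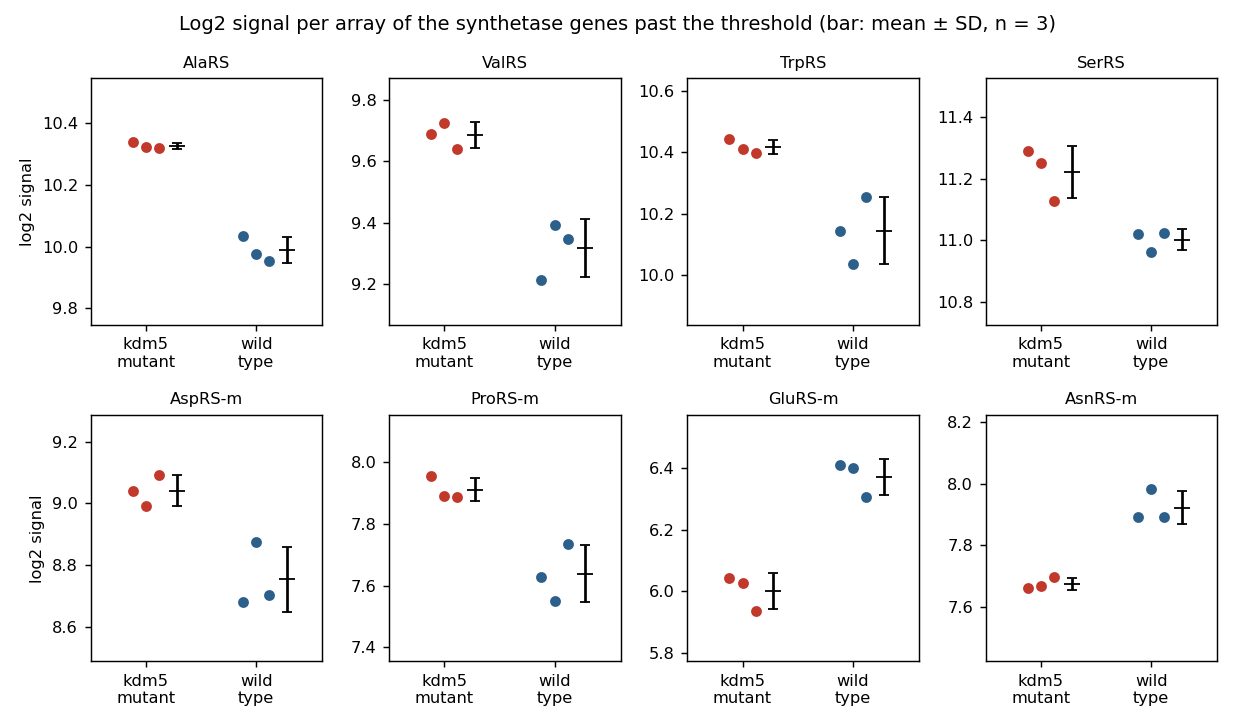
Log2 signal on each array (points) with the mean and SD of 3 arrays (bars) for the 8 synthetase genes past an adjusted p of 0.05, kdm5 mutant left and wild type right. Every vertical axis spans the same range, and the arrays of the genotypes do not overlap in any panel.

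TrpRS, which charges tryptophan, is the only member with more than 1 probe set, and its 3 probe sets did not move the same way. The brightest, which represents the gene here, read 10.44, 10.41 and 10.40 in the mutant and 10.14, 10.04 and 10.25 in wild type, a rise of 0.27 ± 0.06 (SE, adjusted p = 0.0269, limma). The next brightest read 9.23, 9.20 and 9.13 in the mutant and 8.84, 8.81 and 9.002 in wild type, a rise of 0.30 ± 0.07 (adjusted p = 0.0186). The dimmest went the other way, at 7.17, 7.05 and 6.95 in the mutant and 7.73, 7.75 and 7.32 in wild type. It fell by 0.55 ± 0.12 (adjusted p = 0.022, limma), with no overlap between the genotypes. In wild type, replicate 3 was the highest of the 3 arrays on both rising probe sets and the lowest on the falling one. Averaged over the 3 probe sets TrpRS changed by 0.01 (adjusted p = 0.929). Over all probe sets 18.3% were called, 8.49% higher and 9.84% lower. Among the 1094 genes with several probe sets, 28 (2.56%) had probe sets called in opposite directions. The sources used here do not give which part of the transcript each probe set covers.

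With 1 array left out the calls of TrpRS held in few fits. The brightest probe set was called only when wild type replicate 3 was left out, and had 0.0635 to 0.0875 as adjusted p when another array was. The next brightest lost its call without replicate 1 or replicate 2 of either genotype (0.0587 to 0.0682). The falling one lost it without wild type replicate 1 or 2, and without replicate 2 or 3 of the mutant (0.0673 to 0.0803), and with hybridization spike-in centring (0.0538).

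**Figure D3:**
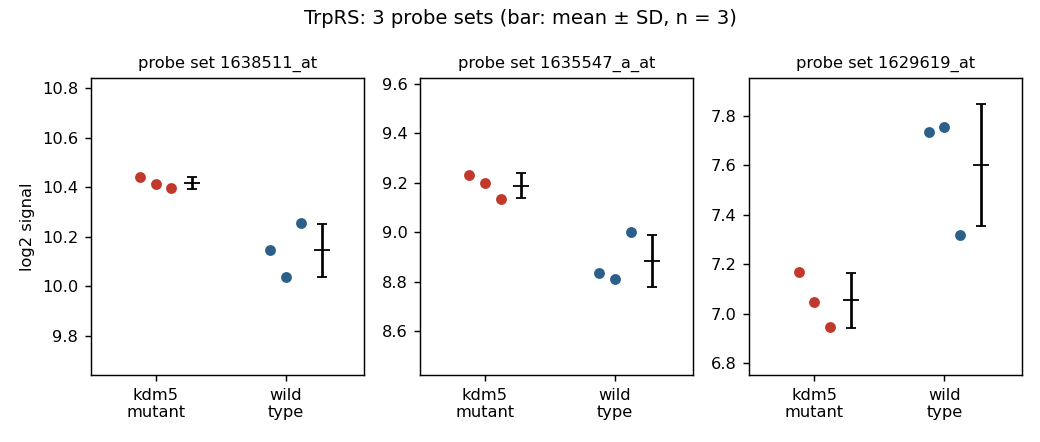
Log2 signal on each array for the 3 probe sets of TrpRS, kdm5 mutant left and wild type right, with the mean and SD of 3 arrays. The panels run from the brightest probe set to the dimmest. The mean was 10.42 in the mutant and 10.15 in wild type on the left, 9.19 in the mutant and 8.88 in wild type in the middle, and 7.05 in the mutant and 7.60 in wild type on the right.

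The other 12 cytosolic genes did not pass, with changes from -0.14 to 0.15 and 95% intervals that together span -0.27 to 0.29. GluProRS, the joined enzyme for glutamate and proline, read 11.19, 11.19 and 11.16 in the mutant and 11.04, 11.02 and 11.11 in wild type. The groups did not overlap, but the change of 0.12 ± 0.05 was not called (adjusted p = 0.14, limma). GlyRS, the glycine enzyme, read 10.91, 10.88 and 10.76 in the mutant and 10.91, 10.96 and 10.94 in wild type, and these overlapped. GlnRS for glutamine and LysRS for lysine changed by 0.15 ± 0.06 and 0.11 ± 0.06, IleRS for isoleucine by -0.14 ± 0.05 and ArgRS for arginine by -0.13 ± 0.06, all without overlap and none called. AsnRS, LeuRS, HisRS, ThrRS, CysRS and TyrRS changed by 0.08, 0.07, 0.02, 0.01, -0.01 and -0.08.

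Of the 6 measured cytosolic members of the multi-synthetase complex (ArgRS, GlnRS, GluProRS, IleRS, LeuRS and LysRS) none was called, and of the other 10 cytosolic genes 4 were, beside 32.3% of genes above the median signal. This split depended on the analysis. With the trended robust prior 4 of the 6 were called (GluProRS and GlnRS higher, IleRS and ArgRS lower). With hybridization spike-in centring 4 were, all higher, and with dim probe sets left out 3 were. The calls over all probe sets moved too, from 1593 higher and 1846 lower in the main fit. They numbered 2062 and 2326 with the trended robust prior, and 6752 and 939 with that centring. Of the 6 complex members 3 had an unadjusted p under 0.05, beside 3479 of the 7274 genes above the median signal. Between genotypes 5 of the 6 did not overlap, 3 above and 2 below wild type, beside 57.6% of genes above the median signal. By class, 2 of 17 class I genes rose and 1 fell (17.6% called), while 4 of 12 class II genes rose and 1 fell (41.7%). The share over genes above the median signal was 32.3%, and GluProRS, which joins both classes, was counted in neither. These groupings were counted with the changes known and were not tested.

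Among the mitochondrial genes GluRS-m and AsnRS-m fell. GluRS-m, the mitochondrial enzyme for glutamate, read 6.04, 6.03 and 5.93 in the mutant, against 6.41, 6.40 and 6.31 in wild type. The groups were well apart, and the change of -0.37 ± 0.06 (SE, adjusted p = 0.0039, limma), 1.29-fold lower, was called under every alternative but centring on the hybridization spike-ins (-0.19, adjusted p = 0.0963). GluRS-m and the cytosolic TyrRS are neighbours in the gene order of chromosome 3L, and TyrRS changed by -0.08 ± 0.05 (adjusted p = 0.307).

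AsnRS-m, the mitochondrial enzyme for asparagine, read 7.66, 7.67 and 7.70 in the mutant and 7.89, 7.98 and 7.89 in wild type, without overlap. It changed by -0.25 ± 0.05 (adjusted p = 0.0138, limma), 1.19-fold lower. Among fits with 1 array left out, its call was lost without mutant replicate 1 (adjusted p = 0.0537) or mutant replicate 2 (0.0577). It was also lost with either spike-in centring, where the changes were -0.06 and -0.16.

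AspRS-m and ProRS-m, the mitochondrial enzymes for aspartate and proline, rose. AspRS-m read 9.04, 8.99 and 9.09 in the mutant and 8.68, 8.88 and 8.70 in wild type. Its change was 0.29 ± 0.07 (SE, adjusted p = 0.0249, limma), and wild type replicate 2 lay nearest to the mutant. ProRS-m read 7.96, 7.89 and 7.89 in the mutant and 7.63, 7.55 and 7.74 in wild type, a change of 0.27 ± 0.06 (adjusted p = 0.0215). Neither gene overlapped between genotypes, but with 1 array left out AspRS-m was called only when that array was wild type replicate 2 (0.0118), and had 0.0538 to 0.082 when it was any of the other 5. ProRS-m was called only when it was wild type replicate 3 (0.0151), and had 0.0518 to 0.0778 when it was any of the other 5.

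The other 10 mitochondrial genes did not pass, and 95% intervals of their changes together span -0.47 to 0.52. ArgRS-m, the arginine enzyme, had the largest change in this group, at 6.91, 6.93 and 6.86 in the mutant and 6.49, 6.48 and 6.80 in wild type. It did not overlap, and at 0.31 ± 0.09 it had an adjusted p of 0.0547, which became 0.00472 without wild type replicate 3 (limma). ValRS-m, at 0.22 ± 0.09, was also called without wild type replicate 3 (adjusted p = 0.0245) and not in the full comparison (0.166). MetRS-m, TyrRS-m, TrpRS-m and LeuRS-m lay below wild type on every mutant array, with changes of -0.26 ± 0.09, -0.20 ± 0.07, -0.15 ± 0.06 and -0.14 ± 0.05, and none was called (adjusted p = 0.0834 to 0.136). LeuRS-m itself read 7.91, 7.96 and 7.84 in the mutant and 8.03, 8.02 and 8.07 in wild type.

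SerRS-m, the mitochondrial serine enzyme, varied most among wild type arrays. It read 8.12, 8.28 and 8.18 in the mutant and 8.02, 7.92 and 8.51 in wild type, so that the mutant arrays fell inside the wild type range. Its change was 0.04 ± 0.15 (adjusted p = 0.89, limma), the largest SE of the 30 genes, and without wild type replicate 3 it was 0.23 (adjusted p = 0.0941). IleRS-m, PheRS-m and CysRS-m changed by 0.04, -0.04 and -0.09 with overlapping arrays. Counted over all members, 19 of 30 did not overlap between genotypes (63.3%), 10 above and 9 below wild type. Over all genes 41.7% did not overlap, 20.1% above and 21.6% below, and over genes above the median signal 57.6%, 26.8% above and 30.8% below.

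**Figure D4:**
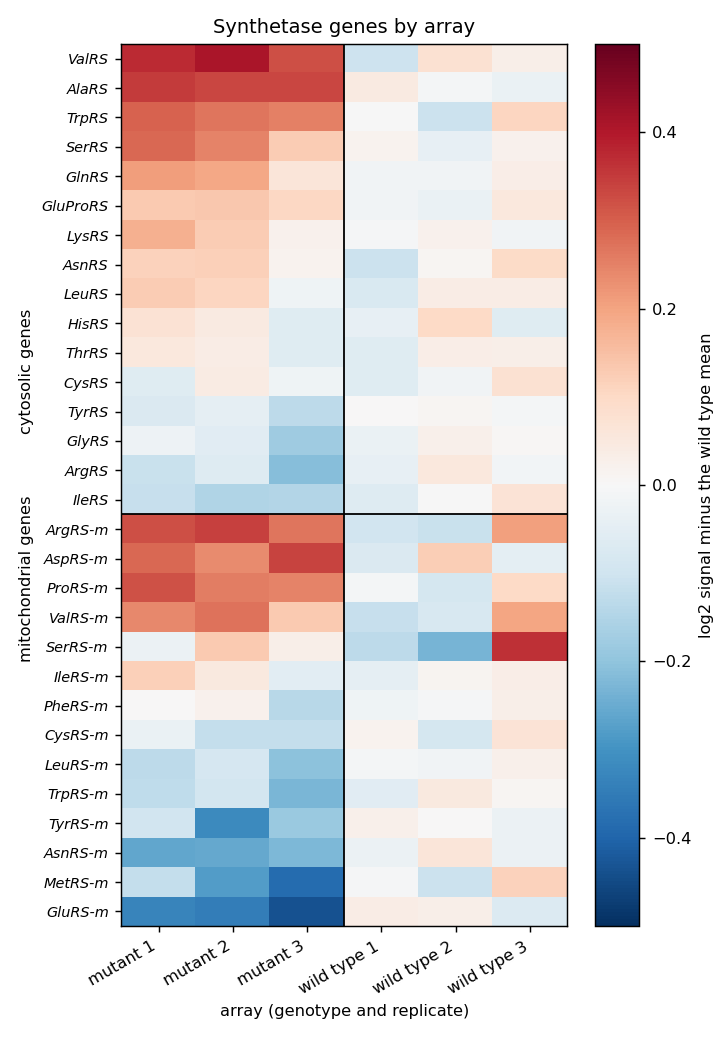
Log2 signal of each of the 30 genes on each array minus the wild type mean of that gene, with the 3 kdm5 mutant arrays left of the 3 wild type arrays, cytosolic genes above mitochondrial ones. Red is above and blue below the wild type mean. Mutant replicate 3 is the lowest mutant array in 14 of 16 cytosolic genes, beside 50.1% of genes above the median signal. Wild type replicate 3 is the highest wild type array in 9 of 14 mitochondrial genes, beside 37.5% of genes above the median signal.

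The arrays of a genotype were not interchangeable for these genes. Mutant replicate 3 was the lowest mutant array in 14 of 16 cytosolic and 9 of 14 mitochondrial genes, beside 50.1% of genes above the median signal. The median over cytosolic genes of signal minus wild type mean was 0.12, 0.12 and -0.001 in mutant replicates 1, 2 and 3. Over all genes the same medians were within 0.005 of 0. Without mutant replicate 3 the median cytosolic change was 0.12, and without mutant replicates 1 or 2 it was 0.06. Without wild type replicate 1 it was 0.03. That array was the lowest wild type array in 9 of the 16 genes, beside 32.8% of genes above the median signal. With all arrays 4 of the 16 were called higher. Without replicate 1 or replicate 2 of either genotype 2 were, and without replicate 3 of either genotype 3 were. Mitochondrial calls numbered 0 higher without wild type replicate 1 or any mutant array, 1 higher without wild type replicate 2 and 3 higher without wild type replicate 3. They numbered 1 lower without mutant replicates 1 or 2 and 2 lower otherwise.

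For 9 amino acids both the cytosolic and the mitochondrial enzyme were measured. The changes had the same sign in 4 pairs and opposite signs in 5, and in no pair were both called. For valine both lay above wild type (0.37 cytosolic, 0.22 mitochondrial), as for serine (0.22 and 0.04). For tryptophan the brightest cytosolic probe set rose by 0.27 while TrpRS-m stood at -0.15, and for asparagine AsnRS stood at 0.08 while AsnRS-m fell by 0.25. For arginine the order was turned, with ArgRS at -0.13 and ArgRS-m at 0.31. For leucine the changes were 0.07 and -0.14, for isoleucine -0.14 and 0.04, for tyrosine -0.08 and -0.20, and for cysteine -0.01 and -0.09. Among single genes above the median signal 57.6% did not overlap between genotypes, and the share over other pairs of genes was not computed. The difference between cytosolic and mitochondrial signal within an array did not overlap between genotypes in 6 of the 9 pairs (arginine, asparagine, isoleucine, leucine, tryptophan and tyrosine). An exact two-sided permutation test gave each of these p = 0.1, the smallest that 3 arrays against 3 allow, and 0.15 after Benjamini-Hochberg adjustment over the 9 pairs, so no pair could pass.

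**Figure D5:**
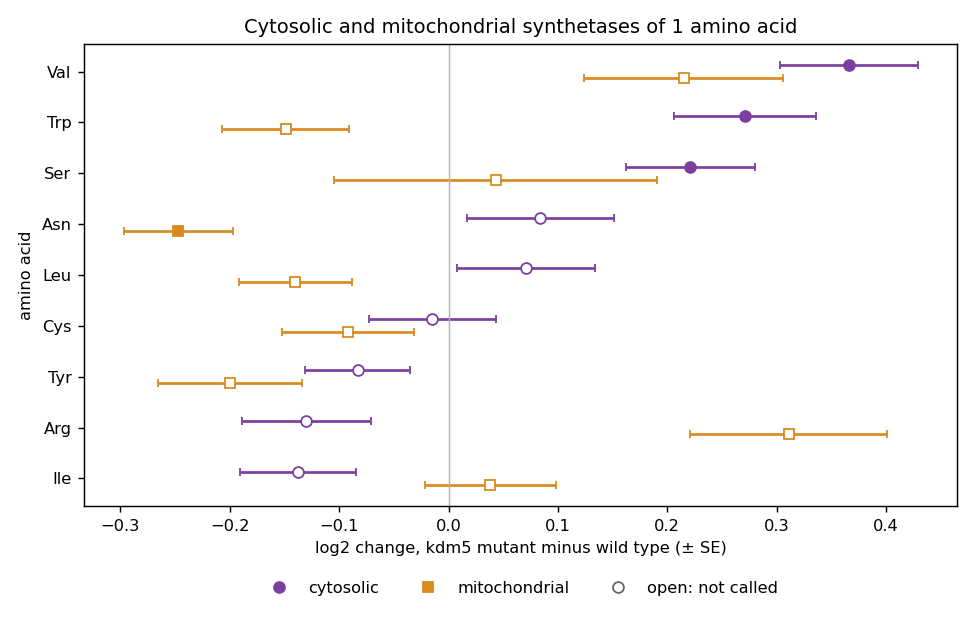
Log2 change, kdm5 mutant minus wild type, with the SE of limma, of the cytosolic (circle) and mitochondrial (square) synthetase for the 9 amino acids with both measured. Filled symbols passed an adjusted p of 0.05. The arginine pair lies furthest apart, at -0.13 and 0.31.

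Of 8 subunits, relatives and partners of synthetases that the naming rule leaves out 2 were called, both lower (25.0%, between the 21.7% of all genes and 32.3% of those above the median signal). Of these GatB was called with every array left out and AIMP3 in 1 of 6 such fits. GatB, a subunit of the amidotransferase that turns glutamate on mitochondrial glutamine tRNA into glutamine, read 7.13, 6.99 and 6.95 in the mutant, against 7.78, 7.72 and 7.70 in wild type. It fell by 0.71 ± 0.06 (SE, adjusted p = 0.000287, limma), 1.63-fold lower, a larger change than that of any of the 30 synthetase genes. This enzyme acts on tRNA charged by GluRS-m. GatA, the catalytic subunit of the same enzyme, changed by 0.03 ± 0.05 with overlapping arrays. AIMP3, a scaffold of the multi-synthetase complex, fell by 0.20 ± 0.05 (adjusted p = 0.0329, limma), and was not called when any array but mutant replicate 1 was left out (0.0672 to 0.121) or with either spike-in centring (0.419 and 0.873). AIMP1 and AIMP2 changed by -0.001 and 0.04. The cytosolic phenylalanine enzyme is made of the products of alpha-PheRS and beta-PheRS, which changed by 0.04 ± 0.05 and -0.11 ± 0.06, neither called. Slimp, a mitochondrial relative of SerRS, changed by -0.11 ± 0.07 and was not called.

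The next steps of translation were counted in the same way, and their shares of called genes lay below the 32.3% of genes above the median signal, where all of them lie. Of 17 cytosolic initiation and elongation factor genes 3 rose and none fell, which is 17.6%, with a median of 0.03. An unadjusted p under 0.05 was reached by 7 of the 17, beside 3479 of the 7274 genes above the median signal. Under the alternative variance prior 4 were called lower, beside 2326 of all probe sets (1846 in the main fit). eEF1alpha2, one of the genes for the factor that delivers charged tRNA to the ribosome, read 10.76, 10.70 and 10.27 in the mutant and 9.54, 9.66 and 9.80 in wild type. It rose by 0.91 ± 0.13 (adjusted p = 0.00348, limma). Its probe set and that of eIF2Bdelta carry the same suffix as that of ValRS. eIF2Bdelta, a subunit of the exchange factor for eIF2, rose by 0.56 ± 0.05, and the scaffold eIF4G1 by 0.25 ± 0.05 (adjusted p = 0.000418 and 0.011). Of 13 factors of mitochondrial translation and transcription 1 rose and 1 fell (15.4%), with a median of -0.11. mEFTs, the exchange factor of the mitochondrial elongation factor, rose by 0.34 ± 0.05 (adjusted p = 0.00334, limma). The initiation factor mIF2 changed by -0.28 ± 0.08 (0.0447) and lost its call whichever of the 6 arrays was left out (0.0573 to 0.121). It also lost it under quantile normalization (0.122), median centring (0.0557), both spike-in centrings (0.177 and 0.384) and the mean of its probe sets (-0.14, 0.299).

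Of 20 genes that process or modify tRNA 3 rose and 4 fell, with a median of -0.02. This share of 35.0% was near the 32.3% of genes above the median signal, where all 20 lie. Elp2, a subunit of the Elongator complex that modifies the wobble base, read 8.04, 8.03 and 8.04 in the mutant and 9.20, 9.16 and 9.23 in wild type. It fell by 1.16 ± 0.05 (adjusted p = 6.34e-06, limma), while Elp3, the catalytic subunit, changed by -0.05 ± 0.07 and was not called. The methyltransferase gene Mt2 fell by 0.42 ± 0.07 (adjusted p = 0.00471). Rtca, an RNA cyclase gene, rose by 0.54 ± 0.07, and Ctu2 and Trm7-34, which act on bases and ribose of the anticodon loop, by 0.35 ± 0.06 and 0.34 ± 0.05 (adjusted p = 0.00221, 0.00613 and 0.00366, limma). Trmt112, which helps several methyltransferases, changed by -0.25 ± 0.06 (0.026), and Ctu1, the partner of Ctu2, by -0.21 ± 0.05 (0.0305). Trmt112 was called with 1 array left out only without wild type replicate 2 (0.0156), and had 0.0647 to 0.0842 with any of the other 5 left out. Ctu1 was called only without mutant replicate 3 (0.04), and had up to 0.118 with any of the other 5 left out. It also lost its call with quantile normalization (0.0622), and both genes lost theirs with either spike-in centring. Lower calls in this list numbered 2 instead of 4 without replicate 1 of either genotype, wild type replicate 3 or mutant replicate 2.

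Uncharged tRNA is sensed by the amino acid response. When tRNA is uncharged, Gcn2 phosphorylates eIF2, which favours translation of the transcription factor ATF4, encoded in flies by crc. In mammals ATF4 activates genes of amino acid synthesis and transport and several cytosolic synthetase genes. Of 16 measured genes of this response 7 rose and 2 fell, with a median of 0.06. That is 56.2% called, beside 21.7% of all genes and 32.3% of those above the median signal, and its difference from the synthetases was not tested. This list was chosen with earlier results of these data known, among them the value of Irbp18, so its count is not independent evidence.

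Gadd45, a stress-response gene, read 8.70, 8.69 and 8.46 in the mutant and 6.45, 6.20 and 6.53 in wild type, and it rose by 2.22 ± 0.10 (adjusted p = 1.31e-05, limma). Irbp18, which encodes a bZIP factor of the C/EBP kind, rose by 0.72 ± 0.04 and Gcn2 by 0.38 ± 0.05 (adjusted p = 5.3e-05 and 0.00178). CG6287, the fly counterpart of the enzyme that opens serine synthesis, read 11.69, 11.67 and 11.58 in the mutant and 11.11, 11.11 and 11.22 in wild type, a rise of 0.50 ± 0.06 (adjusted p = 0.00118). The phosphatase gene aay, the last step of the same pathway, fell by 1.13 ± 0.15 (0.00211), and the sestrin gene Sesn by 0.86 ± 0.14 (0.00514). AsnS, which makes asparagine, rose by 0.64 ± 0.12, PPP1R15, which restores eIF2, by 0.30 ± 0.05, and trbl by 0.28 ± 0.06 (adjusted p = 0.00899, 0.00673 and 0.0157, limma); these last 3 were named after their values were seen. trbl was not called without mutant replicate 2 (0.0668). The crc transcript itself changed by 0.06 ± 0.05 with overlapping arrays (adjusted p = 0.441), and ATF4 is controlled mainly in translation, which arrays do not measure.

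Of 12 amino acid transporter genes 1 rose and 2 fell, with a median of 0.07, and this 25.0% was near the 21.7% of all genes. CG13248 rose by 1.61 ± 0.06 to 4.65 in the mutant, against 3.04 in wild type, and the wild type signal lay below the array median. The genes gb and CG5535 fell by 0.44 ± 0.06 and 0.40 ± 0.07 (adjusted p = 0.0017 and 0.008, limma). Of 8 growth regulators linked to Myc 4 rose, Mnt, Brf, brat and mei-P26, at 0.36 ± 0.07, 0.29 ± 0.05, 0.41 ± 0.09 and 0.23 ± 0.06, and Polr1A fell by 0.24 ± 0.05 (adjusted p = 0.00692 to 0.0393). Among genes above the median signal 14.2% were called higher and 18.1% lower. This list too was chosen with earlier results known, and Myc itself was not among the 8 genes counted. Mnt and Brf kept their calls with each array left out. The probe sets of Mnt and brat carry the same suffix as that of ValRS. The call of brat was lost without replicate 1 of either genotype, wild type replicate 2 or mutant replicate 3 (0.0522 to 0.0618), and that of mei-P26 when any array but wild type replicate 2 was left out (up to 0.126). Leaving out replicate 2 or 3 of the mutant, or replicate 1 of wild type, ended the call of Polr1A (0.0513 to 0.0634). With either spike-in centring Polr1A was not called.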

How the data were processed

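The values are the log2 signals per probe set that the authors deposited for 6 arrays, 3 kdm5 mutant and 3 wild type; PLIER, GCRMA, GCOS and Affymetrix Expression Console are listed in the submitters' processing notes, without saying which of them made the values. Samples were grouped by their titles. Signals of different probe sets are not comparable as levels, and the number of arrays limits precision. Of 18952 probe sets 183 controls were left out. GEO's platform annotation gave 1 symbol for 13647 of the 18769 tested, several for 402 and none for 4720; symbols were updated by gene identifier for 13544 with the table of assembly GCF_000001215.4, and the brightest probe set stands for a gene.

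The test was that of limma 3.58.1 in R 4.3.3, run on every probe set (genotype as the only term, two-sided, Benjamini-Hochberg over all 18769, threshold 0.05, 4 residual degrees of freedom), checked on simulated data. A call is an adjusted p under 0.05; SE is limma's moderated SE. The sample titles call the arrays biological replicates. They do not say whether replicates came from separate crosses, so the p-values may not cover the spread between crosses. Named were all members, with array values for called members and the 2 brightest not called per compartment, and up to 6 called genes of smallest p per related list; exceptions (ArgRS-m and other values near the threshold, Ctu1, single probe sets) were named after their values were seen. The members and lists were chosen with earlier results of these data known. The motif search in promoters, also planned, was not run, as no sequence table was used here. Alternatives were quantile normalization, median and spike-in centring, leaving out dim probe sets, a trended robust prior, array weights, the replicate block, the mean of probe sets, and each array left out.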

Additional observations from a re-analysis of the deposited data

How the results depend on the processing

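No called synthetase gene changed sign under any of the 15 alternatives, and AlaRS and ValRS were called in all. Over 450 fits of a member gene (30 genes, 15 alternatives) 364 kept direction and side of the threshold, 31 lost a call, 26 gained one and 29 changed sign, the last all in genes not called. Centring on the hybridization and polyadenylated spike-ins shifted the median of all genes to 0.19 and 0.10, and the cytosolic median read 0.26 and 0.17 and the mitochondrial median 0.12 and 0.027, so the mitochondrial direction turns in sign while staying below that of all genes. Under these centrings cytosolic genes called higher numbered 9 and 4, mitochondrial ones higher 5 and 3 and lower 0 and 1, and all probe sets called numbered 6752 and 2013 higher and 939 and 995 lower. The dim filter, which tests 9385 probe sets, gave 1 cytosolic and 5 mitochondrial genes lower, beside 2144 of the probe sets tested. The trended robust prior gave 2 cytosolic genes lower, beside 2326 of all probe sets. Over all probe sets the replicate block called 1101 higher and 1396 lower, beside 1593 and 1846 in the main fit. Replicate numbers did not pair the samples (correlations of deviations -0.185 to -0.028 for equal numbers, -0.116 to 0.133 for others); with the replicate block 2 cytosolic genes were higher, 0 mitochondrial genes higher and 1 lower, and SerRS (adjusted p = 0.0916), TrpRS (0.0612), AsnRS-m (0.0512), AspRS-m (0.0697) and ProRS-m (0.0547) lost their call, 5 of the 8.

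With 1 array left out, cytosolic genes higher ranged from 2 to 3 and the cytosolic median from 0.032 to 0.117, mitochondrial genes higher from 0 to 3 and lower from 1 to 2, the mitochondrial median from -0.099 to -0.033, and all probe sets higher from 1020 to 1281. Signs turned with the hybridization spike-ins for ArgRS (0.053), CysRS (0.168), CysRS-m (0.091), GlyRS (0.096), IleRS (0.045), LeuRS-m (0.043), PheRS-m (0.145), TrpRS-m (0.034) and TyrRS (0.10), and with the polyadenylated ones for CysRS (0.077), GlyRS (0.005), PheRS-m (0.054) and TyrRS (0.009). They also turned for CysRS with array weights (0.003) and for PheRS-m (0.002) and ThrRS (-0.006) with quantile normalization. With 1 array left out CysRS ran from -0.045 to 0.024, HisRS from -0.012 to 0.068, IleRS-m from -0.002 to 0.084, PheRS-m from -0.067 to 0.013, SerRS-m from -0.073 to 0.225 and ThrRS from -0.021 to 0.043. Beyond the shift of all genes and the number of probe sets or arrays tested, the cause was not tested.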
